A study of Mus musculus with 6 samples.

Results

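Adhesion G protein-coupled receptors were examined in BM MSCs from OVX mice that had received FMT. The members were all genes of the deposited table whose symbol was *Adgr* followed by a subfamily letter and a number, which gave 27 of 56980 genes, in 8 subfamilies: A (3 genes), B (3), D (1), E (3), F (5), G (7), L (4) and V (1). The CELSR receptors, whose symbols follow another pattern, are described further on with the binding partners. BM MSCs are the stromal cells that attach to plastic when marrow is cultured and that can form bone and fat cells. Female mice underwent OVX at 8 weeks of age, were given antibiotics to deplete their own gut microbiota, and then received feces by gavage for 8 weeks. Donors of both groups were osteoporotic OVX mice. Those of the TranspCtrl group (3 samples) were sedentary and those of the TranspExer group (3 samples) were trained on a treadmill. Flushed marrow was cultured for 7 days with repeated washes and without a described sorting step, so the samples could hold any cell that attaches. The labels do not say that the samples of a group came from separate mice, so the p-values measure the spread between these samples, which may be technical. The comparison of both groups asks how the transplanted microbiota bears on gene expression in recipient BM MSCs.

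Adhesion G protein-coupled receptors carry a long extracellular part in front of the membrane-spanning helices shared by all G protein-coupled receptors. Most cut themselves at a site close to the membrane while they fold, and the stub exposed when the outer fragment is pulled away can act as a built-in agonist. Through their outer part they bind matrix proteins and proteins on neighbouring cells, and they are known from myelination, synapses, vessel growth, epithelial fluid transport and leukocytes, where the product of *Adgre1*, F4/80, is the classical surface marker of mouse macrophages.

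Promoters are given here for the members whose expression differed most. Of these, *Adgrl4*, *Adgrg1* and *Adgre4* were higher in the TranspExer group and *Adgrg2* was lower. The windows of *Adgrg3* and of the first of 2 starts of *Adgrg1* are not printed. The part of the promoters in these differences was not tested. Promoter windows of 300 bases, 250 before and 50 after an annotated start, were taken from RefSeq on GRCm38.p6, where 20 of the 27 members matched, with 24 windows. The windows were searched on both strands for 5 short motifs. The ETS motif was searched as CCGGAAG and the AP-1 motif as TGACTCA. The motif of GATA factors was searched as GATAAG, that of RUNX factors as TGTGGT and the TATA box as TATAAA. Capitals mark a match. All 4 windows lie on the plus strand: *Adgrl4* at chr3:151437632-151437931, the second of 2 starts of *Adgrg1* at chr8:94984149-94984448, *Adgre4* at chr17:55749734-55750033 and *Adgrg2* at chrX:160390440-160390739.
Adgrl4: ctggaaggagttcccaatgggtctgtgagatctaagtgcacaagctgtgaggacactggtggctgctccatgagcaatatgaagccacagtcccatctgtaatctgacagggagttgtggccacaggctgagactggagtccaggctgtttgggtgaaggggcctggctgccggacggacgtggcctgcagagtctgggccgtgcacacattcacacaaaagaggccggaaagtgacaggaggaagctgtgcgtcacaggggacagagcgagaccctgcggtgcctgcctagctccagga
Adgrg1: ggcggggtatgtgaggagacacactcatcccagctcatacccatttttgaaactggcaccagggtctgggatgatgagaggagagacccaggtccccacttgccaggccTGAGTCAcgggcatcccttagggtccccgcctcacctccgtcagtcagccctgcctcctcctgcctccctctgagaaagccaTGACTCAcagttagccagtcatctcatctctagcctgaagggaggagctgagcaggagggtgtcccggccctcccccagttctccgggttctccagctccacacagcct
Adgre4: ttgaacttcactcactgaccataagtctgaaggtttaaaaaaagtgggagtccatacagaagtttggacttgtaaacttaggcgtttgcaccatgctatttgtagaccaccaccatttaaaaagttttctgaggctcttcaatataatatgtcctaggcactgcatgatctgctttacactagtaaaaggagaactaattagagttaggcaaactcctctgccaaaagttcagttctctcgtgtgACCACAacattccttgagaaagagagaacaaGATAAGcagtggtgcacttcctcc
Adgrg2: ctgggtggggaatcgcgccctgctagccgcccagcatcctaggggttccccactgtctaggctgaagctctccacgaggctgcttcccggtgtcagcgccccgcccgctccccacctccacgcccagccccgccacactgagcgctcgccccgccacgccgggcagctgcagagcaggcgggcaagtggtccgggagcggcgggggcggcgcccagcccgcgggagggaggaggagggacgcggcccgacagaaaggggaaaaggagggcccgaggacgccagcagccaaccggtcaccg
The *Adgrg1* window held 2 AP-1 matches, with their first bases at positions -141 (reverse strand) and -59 from the start, and AP-1 letters were found in 5.2% of all 32851 windows. In the *Adgre4* window, a RUNX match began at -5 on the reverse strand and a GATA match at 27, and these letters were found in 16.8% and 7.44% of all windows. None of the matches overlapped another. The windows of *Adgrl4* and *Adgrg2*, the window of *Adgrg3* and that of the first start of *Adgrg1* held none of the 5 motifs (ETS letters were found in 8.86% and TATA box letters in 13.6% of all windows). The *Adgrg2* window was the richest in G and C of those printed, at 74% with 30 CG dinucleotides, whereas that of *Adgre4* had 40.3% and 2, against medians of 52.7% and 7 over all windows. A match is a run of letters only and does not show that a factor binds there.

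All 27 members were found by their identifier in the GENCODE M21 annotation of GRCm38, on 12 chromosomes, and all are protein-coding. *Adgrg1* spans chr8:94974751-95014217 and *Adgrg3* spans chr8:95017692-95045250.

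Total counts ranged from 17647638 to 21319166 per sample, and 3 counts, used as the floor, equalled 0.141 to 0.17 CPM (counts scaled to each library's total). Elsewhere CPM were scaled with TMM factors as well. This floor covers counting error only. The samples of the TranspExer group differed little from each other, whereas replicate 1 of the TranspCtrl group stood apart from replicates 2 and 3 (mean chi-square per gene of 59.3 and 54.1, against 3.79 between replicates 2 and 3), so values without it are given beside the called members and the gene lists, the latter added after the data were seen. Markers of several cell types were detected: the summed level of 10 stromal markers was 11781 to 19632 CPM in the TranspCtrl group and 12838 to 14063 CPM in the TranspExer group, that of 12 macrophage markers was 3819 to 4701 and 4318 to 4489 CPM, and that of 14 endothelial markers was 237 to 283 and 760 to 817 CPM. In such bulk samples, a smaller number of cells of a type and less RNA per cell cannot be told apart.

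Of the 27 members, 26 had a count in at least 1 sample, and 16 passed the filter on low counts. A gene was called a DEG at an adjusted p under 0.05 (edgeR's quasi-likelihood test, Benjamini-Hochberg adjustment over all 15190 genes that passed) together with a fold change of at least 2, the thresholds named in the study's methods. In the TranspExer group 4 members were upregulated, namely *Adgrg1*, *Adgrl4*, *Adgre4* and *Adgrg3*, and 1, *Adgrg2*, was downregulated. Over all genes tested, 3.5% were upregulated and 5.28% were downregulated by the same rule. With the adjusted p alone, 6 members were higher and 2 were lower, against 16.6% and 15.5% of all genes, and the additional members were *Adgre5* and *Adgrf5* (higher) and *Adgrd1* (lower). The remaining 8 tested members had an adjusted p of at least 0.05. Groups did not overlap for 10 of the 16 tested members (8 higher, 2 lower in the TranspExer group), a pattern that 52.4% of all genes showed (27.2% higher, 25.1% lower). The median log2 fold change of the 16 tested members was 0.24, and that of all genes tested was -0.02. Because a member could pass the filter through 1 group alone, these counts describe only the tested members. For any 1 gene, permuting 3 samples against 3 (exact, two-sided) gives no p below 0.1. The p-values printed here therefore depend on the variance that edgeR shares across genes.

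**Figure D1:**
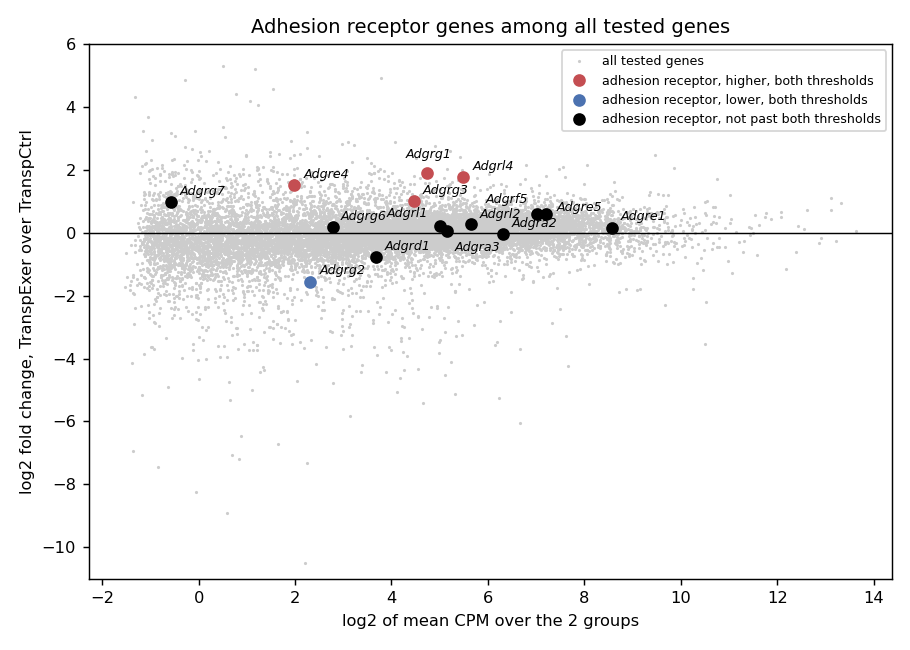
Each grey point is 1 of the 15190 genes tested, with the log2 of its mean CPM on the horizontal axis and its log2 fold change (TranspExer over TranspCtrl) on the vertical axis. The 4 upregulated members (red) lie between 1.00 and 1.90, the downregulated member *Adgrg2* (blue) lies at -1.55, and the other members shown (black) lie between -0.77 and 0.96.

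Levels were compared between genes only per length, as TPM, in which counts are divided by the gene lengths of the deposited table and then scaled to the library. *Adgre1* was the most abundant member in every sample, followed by *Adgre5*, the gene of the leukocyte receptor CD97. In the TranspCtrl group, *Adgre1* stood at 232 ± 18.4 TPM (SD, n = 3) and *Adgre5* at 82.0 ± 4.97, followed by *Adgra2* at 29.4 ± 3.83 and *Adgrf5* at 25.2 ± 1.89, and the ranges of the last pair overlapped. The levels of *Adgra3*, *Adgrl2*, *Adgrg3*, *Adgrl1* and *Adgrl4* then formed a run from 16.4 down to 10.4 TPM in which each gene overlapped the next. *Adgrg1* (7.90 ± 1.68) came at rank 10, and its range did not overlap that of *Adgrl4* above it. In the TranspExer group, *Adgre1* (254 ± 12.2) and *Adgre5* (121 ± 1.52) again led, and *Adgrf5* (37.5 ± 2.79) and *Adgrl4* (34.9 ± 2.26) came next with overlapping ranges. Rank 5 was taken by *Adgrg1* at 28.8 ± 2.09, whose range overlapped that of *Adgra2* at 27.7 ± 2.12. *Adgrl4* thus went from rank 9 to rank 4 of the 16 tested members, *Adgrg1* from 10 to 5, and *Adgrg2* from 12 to 15. In the TranspCtrl group the range of *Adgrg1* overlapped that of *Adgrd1* below it, and that of *Adgrg2* overlapped that of *Adgrg6*. The range of *Adgrg2* in the TranspExer group overlapped that of the member just above it, so its exact ranks are not resolved.

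The TPM of all 27 members added up to 442 to 471 in the samples of the TranspCtrl group and 562 to 609.5 in those of the TranspExer group. *Adgre1* made up 48.1% to 54.4% of this sum in the TranspCtrl group and 42.7% to 43.4% in the TranspExer group. The share of *Adgrl4* was 2.27% ± 0.156 and 5.90% ± 0.229 (SD, n = 3), and that of *Adgrg1* was 1.72% ± 0.361 and 4.89% ± 0.327. These shares are descriptions of the whole family's RNA and were not tested.

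**Figure D2:**
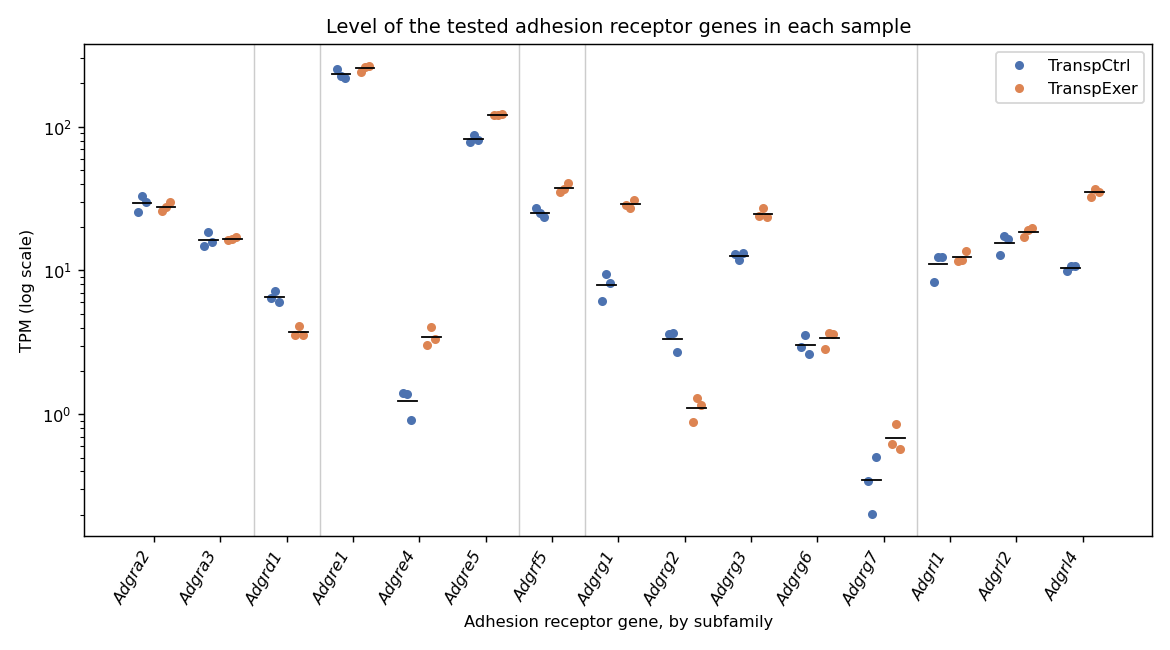
The TPM of each tested member reported here is plotted on a log scale, with 1 point per sample (blue, TranspCtrl; orange, TranspExer) and a line at the group mean, and grey lines separate the subfamilies. *Adgre1* and *Adgre5* sit above all other members in both groups, and the orange points of *Adgrl4* and *Adgrg1* sit well above the blue ones while those of *Adgrg2* sit below.

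Subfamily L comprises the latrophilins (*Adgrl1*, *Adgrl2*, *Adgrl3*), which bind teneurins and FLRT proteins across synapses and cell contacts, and *Adgrl4*, also known as ELTD1, a receptor of endothelial cells involved in vessel growth. *Adgrl4* was measured at 19.3, 20.6 and 21.2 CPM in the TranspCtrl samples and at 66.2, 73.1 and 69.7 CPM in the TranspExer samples. Every TranspExer sample was thus more than 40 CPM above every TranspCtrl sample, and the spread within each group was small. The log2 fold change was 1.77 ± 0.08 (SE, edgeR adjusted p = 2.3e-05), and 1.73 without replicate 1 of the TranspCtrl group. *Adgrl2* stood at 37.1, 49.2 and 48.5 CPM against 51.0, 55.5 and 58.0 CPM. Its groups did not overlap, with TranspCtrl replicate 1 the lowest of all, and its log2 fold change of 0.29 (95% interval 0.01 to 0.56, and 0.16 without that replicate) had an edgeR adjusted p of 0.101. *Adgrl1* was at 30.1 ± 6.47 and 34.6 ± 2.90 CPM (SD, n = 3), with overlapping groups (log2 fold change 0.20, edgeR adjusted p = 0.355, and 0.033 without TranspCtrl replicate 1). *Adgrl3*, a latrophilin of the nervous system, had only 5 to 8 counts in the TranspCtrl samples and 9 or 10 in the TranspExer samples, and was not tested.

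Subfamily G held the most members, and among the tested ones those that moved furthest in each direction. *Adgrg1*, also known as GPR56, binds collagen III and tissue transglutaminase and is known from brain cortex development, muscle and lymphocytes. It was measured at 8.79, 13.3 and 11.8 CPM in the TranspCtrl samples and at 42.5, 39.2 and 45.2 CPM in the TranspExer samples. The lowest TranspExer value was well above the highest TranspCtrl value, and the lowest of all came from TranspCtrl replicate 1. Its log2 fold change was 1.90 ± 0.15 (SE, edgeR adjusted p = 0.000124), and 1.75 without that replicate.

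*Adgrg3* (GPR97) is known as a receptor of granulocytes. It was measured at 15.04, 13.5 and 15.4 CPM in the TranspCtrl samples and at 28.9, 31.9 and 27.5 CPM in the TranspExer samples. The groups were clearly apart, and the log2 fold change was 1.00 ± 0.10 (SE, edgeR adjusted p = 0.000372), which lay at the fold threshold itself, and 1.02 without TranspCtrl replicate 1. Values between 0.92 and 0.99 under 6 other settings, among them the fits without TranspCtrl replicate 2 (0.95) and without TranspExer replicate 2 (0.94), ended its call as a DEG while the adjusted p stayed under 0.05.

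*Adgrg2* (GPR64), a receptor of the male efferent ducts and epididymis where it serves fluid reabsorption, was the only downregulated member. It was measured at 8.06, 8.11 and 6.09 CPM in the TranspCtrl samples and at 2.04, 2.91 and 2.63 CPM in the TranspExer samples. No TranspExer sample reached the lowest TranspCtrl sample, and the log2 fold change was -1.55 ± 0.19 (SE, edgeR adjusted p = 0.000984), and -1.49 without TranspCtrl replicate 1. These values rest on 131 to 165 counts per TranspCtrl sample and 39 to 53 per TranspExer sample. *Adgrg2* overlaps an annotated antisense gene, which had 0 counts in every sample.

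*Adgrg6* (GPR126), which drives Schwann cells to myelinate and takes part in cartilage and spine development, stood at 6.46 ± 0.952 and 7.35 ± 0.929 CPM (SD, n = 3). Its groups overlapped, and the log2 fold change was 0.19 (95% interval -0.18 to 0.56, edgeR adjusted p = 0.398). *Adgrg7*, known from the intestine, had 9, 5 and 14 counts in the TranspCtrl samples and 16, 19 and 15 in the TranspExer samples. Its groups did not overlap, but with so few counts the log2 fold change of 0.96 had a 95% interval of 0.07 to 1.86 and an edgeR adjusted p of 0.0914. *Adgrg4* had no count in any sample, which allows up to 0.141 to 0.17 CPM per sample.

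Subfamily E is the leukocyte branch, with EGF-like domains in the outer part. *Adgre1* (F4/80) was measured at 391, 344 and 340 CPM in the TranspCtrl samples and at 386, 405 and 410 CPM in the TranspExer samples. The groups overlapped because TranspCtrl replicate 1 lay within the TranspExer range. The log2 fold change was 0.16 (95% interval -0.04 to 0.36, edgeR adjusted p = 0.189), whereas without TranspCtrl replicate 1 it was 0.23 with an adjusted p of 0.00277, so 1 sample decided on which side of 0.05 the gene fell.

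*Adgre5* (CD97), which binds CD55 and THY1 on other cells, was measured at 112, 123 and 116 CPM in the TranspCtrl samples and at 178, 174 and 177 CPM in the TranspExer samples. The TranspExer samples lay close together and above every TranspCtrl sample, with a log2 fold change of 0.59 ± 0.07 (SE, edgeR adjusted p = 0.000995), below the fold threshold, and 0.56 without TranspCtrl replicate 1. *Adgre5* overlaps the expressed gene *Ddx39* on the opposite strand over 3642 bases (1014 to 1245 counts per sample), its values were not whole numbers in all 6 samples, and since the sources do not say whether strand was used in counting, reads of this pair may not be cleanly separated.

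*Adgre4* (FIRE), a receptor of mouse myeloid cells, was measured at 2.34, 2.26 and 1.53 CPM in the TranspCtrl samples and at 5.23, 6.80 and 5.61 CPM in the TranspExer samples. Although low, at 33 to 48 counts against 100 to 117, the groups were well apart, with a log2 fold change of 1.52 ± 0.21 (SE, edgeR adjusted p = 0.00153), and 1.63 without TranspCtrl replicate 1. *Adgre4* and *Adgrg2* passed the thresholds on the estimated fold, but when the fold of 2 was itself tested in edgeR their adjusted p was 0.13 and 0.0788.

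*Adgrf5* (GPR116), a receptor of endothelial cells and of the lung epithelium where it controls the surfactant pool, was the only gene of subfamily F that passed the filter. It was measured at 111, 100.3 and 96.1 CPM in the TranspCtrl samples and at 148, 153 and 167 CPM in the TranspExer samples. Every TranspExer sample lay above every TranspCtrl sample, with a log2 fold change of 0.61 ± 0.09 (SE, edgeR adjusted p = 0.00189), below the fold threshold, and 0.67 without TranspCtrl replicate 1. The other 4 genes of the subfamily, *Adgrf1*, *Adgrf2*, *Adgrf3* and *Adgrf4*, had at most 3 counts in any sample, which is the floor.

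Subfamily D has 1 member in the mouse table, *Adgrd1* (GPR133), known from glioblastoma and the oviduct. It was measured at 15.8, 17.56 and 14.9 CPM in the TranspCtrl samples and at 9.10, 10.3 and 8.89 CPM in the TranspExer samples. The groups did not overlap, and the log2 fold change was -0.77 ± 0.11 (SE, edgeR adjusted p = 0.00217), short of the fold threshold, and -0.79 without TranspCtrl replicate 1. A ribosomal protein pseudogene, *Rps16-ps2*, lies within the span of *Adgrd1* on the opposite strand and had 1616 to 2587 counts per sample. Whether it overlaps an exon of *Adgrd1* was not examined. If it does and strand was not used, its reads could have entered the count of *Adgrd1*. The values of *Adgrd1* were whole numbers in every sample.

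Neither tested gene of subfamily A passed a threshold. *Adgra2* (GPR124), a partner of RECK in WNT7 signaling during brain vessel growth, stood at 80.6 ± 9.89 and 77.6 ± 4.96 CPM (SD, n = 3; log2 fold change -0.06, 95% interval -0.30 to 0.19, edgeR adjusted p = 0.706). *Adgra3* (GPR125) stood at 34.9 ± 3.76 and 36.2 ± 0.405 CPM (0.05, 95% interval -0.16 to 0.27, edgeR adjusted p = 0.692). The groups overlapped for both genes, and their small differences changed sign under other settings. *Adgra1* had 2, 3 and 2 counts in the TranspCtrl samples and 0 in each TranspExer sample, all within the floor, so no fold is given.

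The brain angiogenesis inhibitor genes of subfamily B, which act at synapses and in the uptake of dying cells, and *Adgrv1*, the large receptor of hair cells and photoreceptors, were near the floor. *Adgrb1* had 6, 1 and 3 counts against 11, 4 and 8, *Adgrb2* had 2, 6 and 4 against 0, 4 and 6, *Adgrb3* had at most 3 and *Adgrv1* had 2, 4 and 5 against 0, 2 and 2. A difference could not be detected at this depth for these genes. When the filter was dropped, 10 of the 11 untested members could be fitted (not *Adgrg4*). None was called by edgeR, and the lowest adjusted p was 0.111, for *Adgra1*. This gene alone had an unadjusted p under 0.05, at 0.0262 in edgeR's quasi-likelihood test.

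**Figure D3:**
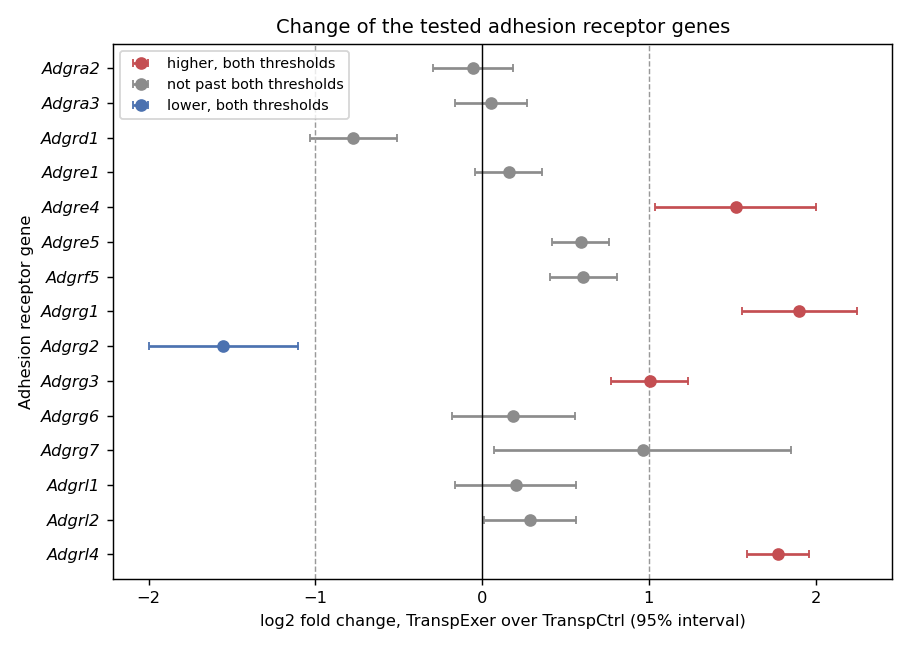
The log2 fold change (TranspExer over TranspCtrl) of each tested member reported here is shown with its 95% interval from edgeR, and dashed lines mark a fold of 2 in either direction. The intervals of *Adgrl4*, *Adgrg1* and *Adgre4* lie beyond the upper line, that of *Adgrg2* lies beyond the lower one, and that of *Adgrg3* spans the upper line.

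When the CPM of all members of a subfamily were added up per sample, subfamily G ranged between 39.7 and 44.2 CPM in the TranspCtrl group and between 81.7 and 85.0 CPM in the TranspExer group, a log2 ratio of the means of 1.01. Within it, *Adgrg1* and *Adgrg3* rose while *Adgrg2* fell, so the sum hid opposite changes. Subfamily L ranged between 79.2 and 104 CPM and between 151 and 166 CPM (log2 ratio 0.74), with *Adgrl4* as its only called member. Subfamily E, dominated by *Adgre1*, ranged between 457 and 505 CPM and between 569 and 593 CPM (log2 ratio 0.29). The sums of subfamilies F and D followed their single tested members (log2 ratios 0.61 and -0.77), and that of subfamily A was 116 ± 13.5 CPM and 114 ± 5.24 CPM (SD, n = 3; log2 ratio -0.02). These sums were not tested, and the sums of subfamilies B and V rest on too few counts to be read.

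Several members are known from particular cell types, so their values are given beside the marker genes of those cells. The counts of each list stand against 3.5% of all genes upregulated and 5.28% downregulated. By the adjusted p alone these shares were 16.6% higher and 15.5% lower. Of 14 endothelial markers tested, 12 were upregulated and none was downregulated (14 of 14 were higher by the adjusted p alone), with a median log2 fold change of 1.54. Without TranspCtrl replicate 1 the counts were 12 and 0 and the median 1.52. Among them, *Cdh5*, the cadherin of endothelial junctions, went from 70.2 ± 17.7 to 284 ± 23.1 CPM, *Pecam1* from 71.6 ± 1.91 to 131 ± 1.13 CPM, and *Kdr*, a VEGF receptor, from 18.9 ± 1.56 to 55.1 ± 5.66 CPM (SD, n = 3). No gene of this or any other marker list was at 0 in all samples. The log2 fold change of *Adgrl4* (1.77) lay within the range of these markers, 0.69 to 2.69, whereas those of *Adgrf5* (0.61) and *Adgra2* (-0.06) lay below all 14. Per 1000 counts of the endothelial markers, *Adgrl4* had 72.8 to 81.7 counts in the TranspCtrl group and 85.3 to 94.8 in the TranspExer group, whereas *Adgrf5* had 355 to 467 and 195 to 204. On the same scale *Adgra2* had 295 to 318 and 96.7 to 102, and *Adgrg1* had 37.1 to 47.2 and 50.8 to 55.9. The ratio of *Adgrf5* to *Adgrl4* counts was 5.73, 4.87 and 4.52 in the TranspCtrl samples and 2.24, 2.09 and 2.39 in the TranspExer samples. The genes thus moved by unequal amounts. *Adgrg1* is described above as known from lymphocytes, so their markers are given too. Of 10 T and NK cell markers, 1 was upregulated and 1 was downregulated (median log2 fold change -0.14). Of 9 B and plasma cell markers, none was upregulated and 7 were downregulated (median -1.42). The part of the endothelial or lymphocyte markers in the changes of *Adgrl4*, *Adgrf5* and *Adgrg1* was not tested.

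Macrophage markers moved both ways. Of 12 tested, none was upregulated and 1, *Marco*, was downregulated (5 higher and 2 lower by the adjusted p alone), with a median log2 fold change of 0.09 (0.27 without TranspCtrl replicate 1, with counts of 0 and 1). *Csf1r*, the receptor for the macrophage growth factor, stood at 882 ± 33.0 and 928 ± 41.9 CPM, and *Mrc1* at 683 ± 26.4 and 544 ± 15.3 CPM (SD, n = 3). The 5 markers higher by the adjusted p alone were *Vsig4* (0.90), *Cd68* (0.78), *Mertk* (0.71), *Timd4* (0.65) and *Fcgr1* (0.38 on the log2 scale), of which *Cd68* went from 479 ± 11.3 to 823 ± 35.5 CPM. *Adgre1* had 83.2 to 89.2 counts per 1000 counts of these markers in the TranspCtrl group and 87.3 to 94.9 in the TranspExer group. Of 11 neutrophil markers, 3 were upregulated, and these were the genes of the granule proteases and peroxidase of immature cells, *Mpo* (2.47), *Elane* (2.16) and *Prtn3* (1.79 on the log2 scale). By the adjusted p alone 4 were higher and 2 were lower, the additional genes being *Ngp* (0.53), *Cxcr2* (-0.56) and *Ly6g* (-0.54), and the median of the list was 0.07 (0.27 without TranspCtrl replicate 1, with counts of 3 and 0). *Adgrg3* had 3.44 to 4.17 counts per 1000 neutrophil marker counts in the TranspCtrl group and 4.79 to 5.52 in the TranspExer group. Of 10 eosinophil, basophil and mast cell markers, 6 were upregulated and 1 was downregulated, with a median of 1.02 and a summed level of 72.1 to 92.1 and 178 to 188 CPM. Without TranspCtrl replicate 1 the counts were 6 and 1 and the median 1.09. The part of these granulocyte markers in the change of *Adgrg3* was not tested.

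Of the remaining lists, 7 of 9 B and plasma cell markers, 5 of 8 osteoclast markers and 3 of 10 stromal markers were downregulated, with median log2 fold changes of -1.42, -1.78 and -0.46, and 1 osteoclast marker was upregulated. By the adjusted p alone 6 stromal markers were lower and 2 were higher, *Vcam1* (0.65) and *Pdgfrb* (0.39 on the log2 scale). *Col1a2* stood at 6504 ± 1199 and 4250 ± 161 CPM (SD, n = 3). *Col1a1* stood at 8043 ± 3018 and 7222 ± 459.6 CPM, a log2 fold change of -0.16 (edgeR adjusted p = 0.674) that became -0.44 (edgeR adjusted p = 1.5e-05) without TranspCtrl replicate 1. Of 9 pericyte and smooth muscle markers, 4 were upregulated and 1 was downregulated, and 3 of 5 adipocyte markers were upregulated. Their medians were 0.97 and 1.31. The upregulated adipocyte markers were *Lpl*, *Pparg* and *Plin1*, the last from 0, 0 and 3 counts in the TranspCtrl samples to 25, 34 and 31. *Adipoq*, at 16 to 22 counts per sample, had a log2 fold change of 0.32 (edgeR adjusted p = 0.414). The summed level of the pericyte and smooth muscle markers was 2540 to 2991 CPM in the TranspCtrl group and 1848 to 2062 CPM in the TranspExer group. Of this sum, *Acta2* stood at 1987 ± 131 and 1436 ± 87.6 CPM (SD, n = 3). By the adjusted p alone 5 of these markers were higher and 3 (*Acta2*, *Cnn1* and *Tagln*) were lower. Of 4 osteoblast markers tested, 2 were downregulated (median -1.03). Monocyte (8 tested, 1 upregulated), dendritic (5, 1 upregulated) and T and NK cell markers (10, 1 upregulated and 1 downregulated) had medians of 0.29, 0.35 and -0.14. By the adjusted p alone 4 monocyte markers were higher and 2, *Fn1* (-0.70) and *Ccr2* (-0.68 on the log2 scale), were lower. Without TranspCtrl replicate 1, each of these remaining lists differed from its counts by at most 1 gene, with *Fabp4* and *Myh11* added as higher and *Alpl* as lower. The medians were then -1.29 (B and plasma cell), -1.73 (osteoclast), -0.52 (stromal), 1.06 (pericyte and smooth muscle) and 1.38 (adipocyte). Those of the osteoblast, monocyte, dendritic and T and NK cell markers were -1.16, 0.30, 0.28 and -0.24.

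**Figure D4:**
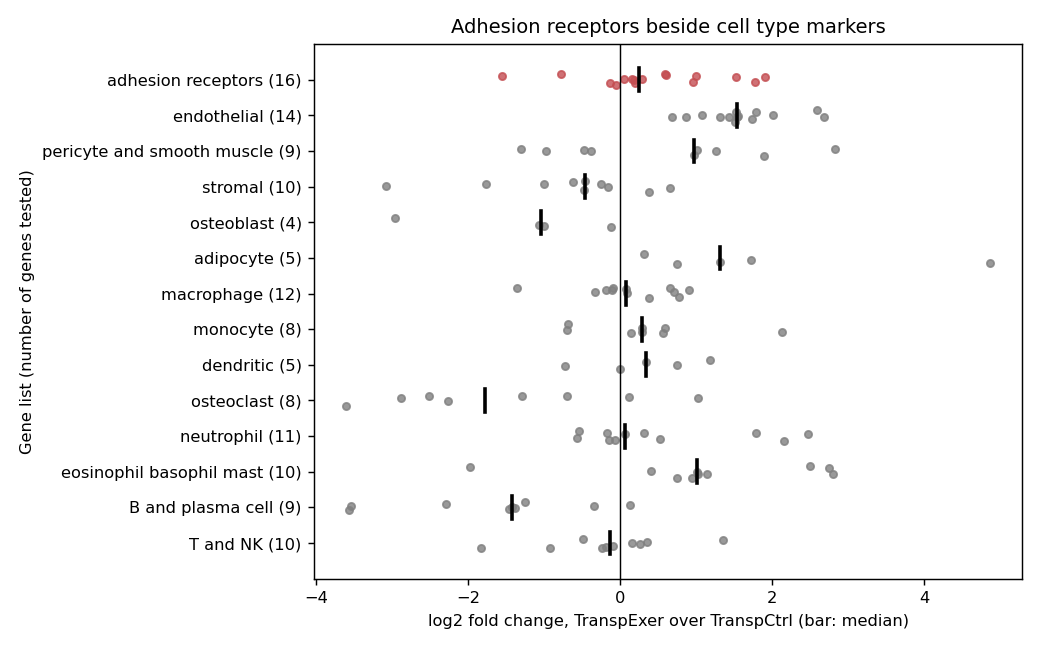
Each point is the log2 fold change (TranspExer over TranspCtrl) of 1 tested gene, with the 16 adhesion receptors in red, the marker lists in grey and a bar at each list's median. All 14 endothelial markers lie above 0 with a median of 1.54, the adhesion receptors spread from -1.55 to 1.90, and the macrophage markers centre near 0.

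The 3 CELSR receptors, related cadherin-type adhesion receptors of planar cell polarity, were measured beside the members. *Celsr1* was upregulated, from 1.32, 1.90 and 1.30 CPM in the TranspCtrl samples to 4.34, 3.60 and 4.27 CPM in the TranspExer samples, with a log2 fold change of 1.44 ± 0.22 (SE, edgeR adjusted p = 0.00228), and 1.35 without TranspCtrl replicate 1. *Celsr2* and *Celsr3* had overlapping groups and were not called.

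Of 34 genes whose products are listed as binding partners of adhesion receptors, 20 passed the filter, 3 were upregulated and 3 were downregulated, with a median log2 fold change of -0.15. The adjusted p alone called 5 higher and 6 lower. Over all genes tested, 3.5% were upregulated and 5.28% downregulated, and 16.6% were higher and 15.5% lower by the adjusted p alone. Without TranspCtrl replicate 1, both thresholds again gave 3 and 3, and the median was -0.21. For *Adgrg1*, the gene of its ligand collagen III went the opposite way: *Col3a1* was at 2857, 3242 and 3034 CPM in the TranspCtrl samples and at 1213, 1269 and 1277 CPM in the TranspExer samples (log2 fold change -1.28 ± 0.09, SE). *Tgm2*, the gene of tissue transglutaminase, was at 224, 239 and 226 CPM against 292, 312 and 335 CPM (0.44 ± 0.08, SE), above in every TranspExer sample but below the fold threshold. Receptor and ligand genes of this set thus moved in different directions and by different amounts. *Plvap*, an endothelial gene of caveolar and fenestral diaphragms that had been listed as a candidate partner of *Adgrg1*, went from 9.77, 14.7 and 16.1 to 76.4, 68.9 and 71.6 CPM (2.42 ± 0.17, SE).

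Partners of *Adgrg6* were split as well. The collagen IV genes rose, *Col4a1* from 350, 440.2 and 401 to 862, 906 and 949 CPM (1.19 ± 0.11, SE) and *Col4a2* from 230, 306 and 282 to 585, 591 and 639 CPM (1.15 ± 0.12, SE). *Lama2*, a laminin chain, fell from 4.15, 4.67 and 5.49 to 1.73, 1.98 and 1.34 CPM (-1.51 ± 0.21, SE). *Adgrg6* itself was not called, as given above. *Prnp*, the prion protein gene, was lower at -0.32, past the adjusted p only. The listed partners of *Adgre5* were lower where the receptor was higher, with log2 fold changes of -0.75 for *Cd55* and -0.71 for *Thy1*, past the adjusted p but not the fold. Of the latrophilin partners, *Flrt3* was downregulated (-1.12 ± 0.15, SE), while *Flrt2* was higher by 0.61 and past the adjusted p only. *Reck*, the partner of *Adgra2*, and *Plxdc2* and *Ptk7*, partners of *Adgrd1*, had 95% intervals that included 0. Among the 14 listed genes under the filter, 5 had no count in any sample: *C1ql2*, *C1ql4*, *Sftpd*, *Tenm2* and *Wnt7a*. *Wnt7b*, the other WNT7 ligand of *Adgra2*, had 2 to 12 counts.

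**Figure D5:**
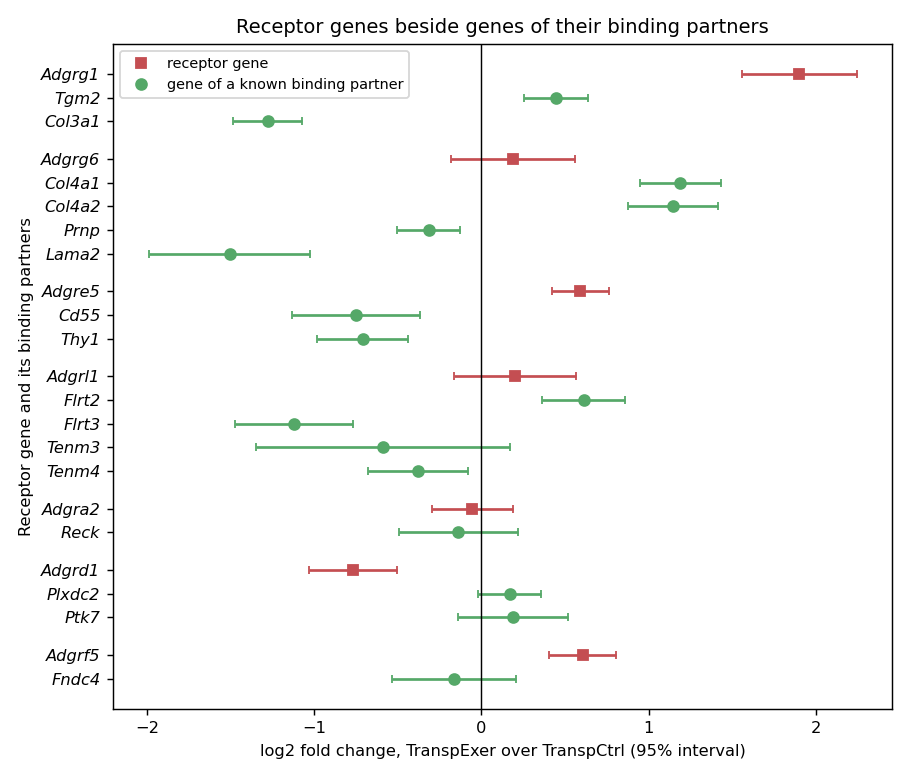
Log2 fold changes (TranspExer over TranspCtrl) with 95% intervals from edgeR are shown for 7 receptor genes (red squares) and, under each, for genes of proteins known to bind it (green circles). *Col3a1* lies at -1.28 under *Adgrg1* at 1.90, and *Cd55* and *Thy1* lie at -0.75 and -0.71 under *Adgre5* at 0.59.

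Adhesion receptors signal through several classes of G proteins. Of 13 genes of G protein alpha subunits, 12 passed the filter, with log2 fold changes from -0.13 (*Gnao1*) to 1.16 (*Gnaz*) and a median of 0.46. *Gnaz*, a subunit of the inhibitory class, was the only one upregulated, from 3.08 ± 1.02 to 6.93 ± 0.795 CPM (SD, n = 3; log2 fold change 1.16 ± 0.23, SE, edgeR adjusted p = 0.00796), and none was downregulated. Without TranspCtrl replicate 1, its log2 fold change was 0.99 and its call was lost, and the median was 0.31. By the adjusted p alone 6 of the 12 were higher, none was lower and 6 did not pass, against 16.6% higher and 15.5% lower over all genes tested. Without that replicate 6 were higher and 1 was lower.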

How the data were processed

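The RNA-Seq samples of BM MSCs were 3 of the TranspCtrl and 3 of the TranspExer group. The authors deposited expected counts per gene, not normalized, between 10.1% and 12.2% of them not whole in a sample, with gene lengths. The submitters' processing notes name the build mm10, and the aligner, counter and strand setting are not given in the sources used here. The labels and the study's methods name different library kits. Counts were rounded and tested with edgeR 4.0.16 (filterByExpr, TMM, quasi-likelihood test, group as the only term) in R 4.3.3, with Benjamini-Hochberg adjustment over 15190 genes. TPM used the deposited lengths. Standard errors follow from each log2 fold change and its F value. Coordinates came from GENCODE M21 (GRCm38) and promoters from RefSeq (GRCm38.p6).

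The members and the gene lists were chosen with earlier results of these data known. Named were members past a threshold, the most abundant of each subfamily, genes past both thresholds among binding partners, CELSR receptors and alpha subunits, and up to 3 abundant genes of a marker list. Other genes were named after their values were seen, and not every marker past the thresholds is named. Alternatives were DESeq2 1.42.0, upper-quartile and library-size scaling, other filters, a replicate block, the fold of 2 tested in the model, and each sample left out in turn (for the gene lists, TranspCtrl replicate 1 only, chosen after seeing the data). The test was tried on simulated data before use. The values of 1 tested member and the counts of 1 gene list beyond its alpha subunits are not reported here.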

Additional observations from a re-analysis of the deposited data

How the results depend on the processing

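With the fold of 2 tested in the model, 2 members were higher (*Adgrg1*, *Adgrl4*) and 0 lower, and over all genes 138 were higher and 274 lower, against 4 and 1 members and 531 and 802 genes. This test asks for more than an estimated fold of 2. Under every other alternative 3 or 4 members were higher and 1 was lower. *Adgrg3* was called or lost according to which side of a log2 fold change of 1 it fell. *Adgra2* changed sign to 0.026 without TranspCtrl replicate 2, its lowest value with a sample left out being -0.15. *Adgra3* changed sign to -0.024 with upper-quartile normalization, -0.032 with library size only and -0.013 without TranspCtrl replicate 1, its highest value with a sample left out being 0.14. None of these values was called. The log2 ratio of the summed CPM of subfamily E was 0.21 and that of subfamily G 0.93 with upper-quartile normalization, and 0.20 and 0.92 with library size only, scalings that moved the median log2 fold change of all genes from -0.02 to -0.10. With each sample left out in turn, the log2 fold change ranged from 1.73 to 1.80 for *Adgrl4*, 1.75 to 2.04 for *Adgrg1*, 1.35 to 1.63 for *Adgre4*, 0.94 to 1.04 for *Adgrg3* and -1.68 to -1.43 for *Adgrg2*.

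With the replicate number as a block, 4 members were higher and 1 lower, as were 519 and 767 genes, and *Adgrl2* came to an adjusted p of 0.049 (edgeR). Samples with equal numbers did not deviate together (correlations of their deviations from the group means of 0.025, -0.0017 and 0.042), and not every sample correlated best with its own number, so the numbers were not taken as pairs. The block changed no call among the members, since *Adgrl2* stayed below the fold threshold at a log2 fold change of 0.30. Depth limits what can be said of the 11 members under the filter on low counts.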
